A study of Mus musculus with 8 samples.

Results

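The genes studied here encode the ligands and receptors of the TNF superfamily that carry the systematic Tnfsf and Tnfrsf symbols, read in mouse liver RNA. Every row of the deposited count table was taken whose symbol is Tnfsf or Tnfrsf with a number and at most 1 letter, apart from 1 receptor gene that the rule leaves out, which gave 30 genes of 55487. Of these, 11 are ligand genes and 19 receptor genes. The series compared 3 genotypes, 1 library per mouse: NemoDK;Ercc1-/Δ (n = 2, both 11.8 weeks old, hereafter NemoDK livers), Ercc1-/Δ (n = 2, 15.1 and 13.7 weeks old) and WT (n = 4, 10.7, 12.3, 11.1 and 11.8 weeks old). Ercc1-/Δ mice carry a null and a hypomorphic allele of Ercc1, which encodes a subunit of a DNA repair endonuclease, and the NemoDK mice share that Ercc1 genotype. Nemo is the regulatory subunit of the kinase complex that activates NF-κB; what DK stands for is not explained in the labels. The Ercc1-/Δ mice were older than every other mouse, so in comparisons with them genotype and age cannot be told apart. All mice are labelled female, and the RNA is stranded total RNA from whole liver.

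Libraries held 21.6 to 27.8 M counts. Levels are given in CPM, counts relative to the library size scaled with TMM factors, and differences as log2 fold changes ± standard error from edgeR's quasi-likelihood test. A gene is called when its p-value, adjusted by Benjamini-Hochberg over the 15598 genes with enough counts, is under 0.05. Ercc1 transcript was 1.87 and 1.86 CPM in the NemoDK livers, 1.76 and 1.49 CPM in the Ercc1-/Δ livers and 5.04, 2.57, 3.58 and 4.44 CPM in the WT livers. All 8 hepatocyte markers were present, with a summed level of 84397 and 86950 CPM in the NemoDK livers, 84313 and 83973 CPM in the Ercc1-/Δ livers and 111270 to 137164 CPM in the WT livers. WT library 3 went against its label: it held 0 counts of Xist, where the other 7 libraries held 9331 to 15744, and 3087 counts of 4 Y-linked genes. Without it, 4 of the genes were called in NemoDK against WT and 6 in Ercc1-/Δ against WT, in place of 5 and 7. In whole liver, fewer cells of a type and less RNA per cell cannot be told apart.

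Ligands of the TNF superfamily are mostly trimers on a cell's surface, some of them cut free, and each binds 1 or several receptors. Receptors with a death domain, such as TNFR1, can start cell death, while many others bind TRAF adaptors and activate NF-κB through the classical or the non-classical pathway. Decoy receptors bind ligand and do not pass a full signal on. In liver the family is known for hepatocyte death and survival (TNF, TRAIL), regeneration and progenitor cell growth (TWEAK and its receptor Fn14), and the upkeep of macrophages and lymphocytes.

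Against WT, 5 of the 15 tested receptor genes were higher in NemoDK livers and 7 in Ercc1-/Δ livers, and none was lower in either. Of the 5 tested ligand genes edgeR called 0 in both comparisons, the closest being Tnfsf14 (adjusted p = 0.100 in NemoDK against WT and 0.0561 in Ercc1-/Δ against WT), which DESeq2 called in Ercc1-/Δ against WT. Whether receptor and ligand genes differ in their change was not tested. Tnfrsf23, Tnfrsf22, Tnfrsf11a and Tnfrsf13b were called in both comparisons, which share the same WT livers. Tnfrsf12a, Tnfrsf1a and Tnfrsf14 were called in Ercc1-/Δ livers, and Tnfrsf13c in NemoDK livers. Among all tested genes, 18.0% were called in NemoDK against WT (10.6% higher and 7.40% lower) and 20.8% in Ercc1-/Δ against WT (11.3% higher and 9.50% lower). At an unadjusted p under 0.05 there were 11 of the tested family genes in each comparison, beside 34.0% of all tested genes in NemoDK against WT and 35.6% in Ercc1-/Δ against WT. These counts come from 20 of the 30 genes, since 10 had too few counts for the test. The median log2 fold change of the 20 was 0.47 in NemoDK against WT and 0.45 in Ercc1-/Δ against WT, beside medians of 0.0034 and -0.0010 over all tested genes. Of the 20, Tnfrsf13b, Tnfrsf13c and Tnfsf13b passed the count filter only through mutant libraries, where they are high, so neither the share called nor the median of the 20 is a measure of the whole family. Summed over the 19 receptor genes the level was 202 and 210 CPM in the NemoDK livers, 210 and 201 CPM in the Ercc1-/Δ livers and 173, 165, 143 and 143 CPM in the WT livers. The 11 ligand genes together reached 18.3 and 20.2 CPM in the NemoDK livers, 17.7 and 15.7 CPM in the Ercc1-/Δ livers and 14.7, 26.1, 18.8 and 13.9 CPM in the WT livers. The receptor sums of all 4 mutant livers lay above those of all WT livers, while the ligand sums overlapped. Tnfrsf1a alone averaged 104 CPM in the NemoDK livers, 113 CPM in the Ercc1-/Δ livers and 78.7 CPM in the WT livers. A large part of the receptor sum is therefore 1 gene, and the sum is no measure of the whole family.

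**Figure D1:**
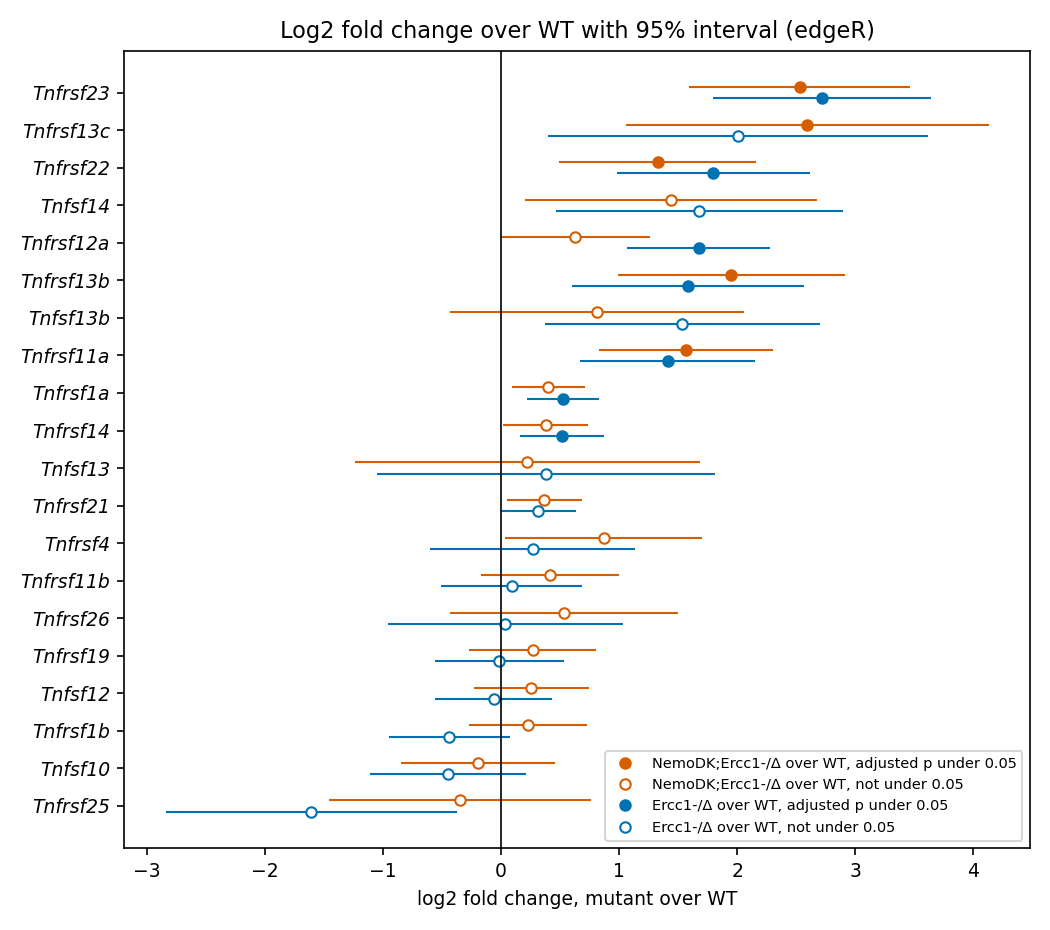
Log2 fold change of the 20 tested genes in NemoDK;Ercc1-/Δ over WT and in Ercc1-/Δ over WT (horizontal axis), with 95% intervals as lines. Filled points are called (adjusted p under 0.05) and open points are not; the filled points are all receptor genes to the right of 0, from 0.52 for Tnfrsf1a and Tnfrsf14 to 2.72 for Tnfrsf23.

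With so few mice the number of calls depended on single libraries. In NemoDK against WT it was 1 without NemoDK library 1 and 0 without NemoDK library 2. In Ercc1-/Δ against WT it was 2 without Ercc1-/Δ library 1, 3 without Ercc1-/Δ library 2, and 4 without WT library 4 or either NemoDK library. With age as a covariate, 0 of the 7 genes stayed called in Ercc1-/Δ against WT, while the same 5 were called in NemoDK against WT, whose ages lie within the WT range. Over all genes, 41 were called in Ercc1-/Δ against WT with age as a covariate and 3243 without it. Standard errors of the 7 genes in Ercc1-/Δ against WT were larger with age in the fit. They were 0.49 in place of 0.27 for Tnfrsf12a and 1.02 in place of 0.41 for Tnfrsf23. A lost call there does not show an effect of age, which was not tested. With library size alone as the scaling, the median log2 fold change of all tested genes shifted to 0.27 in NemoDK against WT and 0.26 in Ercc1-/Δ against WT, and 10 and 11 of the 20 genes were called. That scaling called 3508 genes higher and 490 lower over all genes in NemoDK against WT, in place of 1646 and 1154, and 3765 higher and 690 lower in Ercc1-/Δ against WT, in place of 1761 and 1482. With upper-quartile factors these were 2048 and 783 in NemoDK against WT (median shift 0.10), and 2079 and 1141 in Ercc1-/Δ against WT.

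Promoters are shown for the called receptors with the most stable calls among those in the RefSeq table, which holds 24 of the 30 genes and not Tnfrsf22. Each run is the 250 bases before the start site, 5′ to 3′ on the gene's strand, in GRCm38.p6. Capitals mark matches, on either strand, to the GC box GGGCGG, which occurs in 32.7% of the 32851 promoters of the table. The Tnfrsf23 run is chr7:143685876-143686125 (minus strand), the Tnfrsf12a run is chr17:23677450-23677699 (minus strand) and the Tnfrsf11a run is chr1:105780473-105780722 (plus strand).
Tnfrsf23: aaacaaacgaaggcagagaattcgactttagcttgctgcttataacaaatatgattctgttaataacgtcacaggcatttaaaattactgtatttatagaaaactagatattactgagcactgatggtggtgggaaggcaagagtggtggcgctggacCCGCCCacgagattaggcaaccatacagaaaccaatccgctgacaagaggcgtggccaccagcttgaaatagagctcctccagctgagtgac
Tnfrsf12a: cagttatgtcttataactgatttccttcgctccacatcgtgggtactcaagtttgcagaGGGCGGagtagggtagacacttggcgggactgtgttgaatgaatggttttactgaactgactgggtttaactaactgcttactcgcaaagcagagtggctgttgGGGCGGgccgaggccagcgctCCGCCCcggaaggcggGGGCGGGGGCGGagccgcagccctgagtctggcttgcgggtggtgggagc
Tnfrsf11a: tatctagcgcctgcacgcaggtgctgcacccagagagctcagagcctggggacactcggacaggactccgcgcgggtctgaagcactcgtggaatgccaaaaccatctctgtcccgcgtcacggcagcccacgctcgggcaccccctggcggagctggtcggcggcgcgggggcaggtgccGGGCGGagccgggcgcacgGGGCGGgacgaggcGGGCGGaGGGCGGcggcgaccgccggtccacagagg
The Tnfrsf12a run holds 5 GC boxes, the Tnfrsf11a run 4 and the Tnfrsf23 run 1. Also searched on both strands were the NF-κB consensus site (7.25% of all promoters), a p53 half-site (7.13%) and the AP-1 site TGANTCA (6.75%), and none of them is in these 3 windows. Over the 24 genes with a promoter, 3 held the NF-κB letters (Tnfrsf25, Tnfrsf8 and Tnfrsf9), 1 the p53 half-site (Tnfsf13b) and 5 the AP-1 letters (Tnfrsf8, Tnfrsf9, Tnfsf13, Tnfsf13b and Tnfsf14). Counted per gene in the same way, the shares over all 27025 genes were 8.23% for NF-κB, 8.2% for p53 and 7.82% for AP-1. The GC box was in 11 of the 24 genes, beside 35.4% of all genes. A match is a match of letters and no measure of binding.

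Levels between genes were compared per kilobase of annotated exon. In WT livers Tnfrsf1a, the gene of the main TNF receptor TNFR1, stood first at 30.4 ± 4.09 CPM per kilobase (mean ± SD, n = 4), and Tnfrsf1b, the gene of TNFR2, second at 10.7 ± 2.46. Behind them came Tnfsf12 (4.33 ± 0.898), Tnfrsf14 (4.29 ± 0.517) and Tnfrsf12a (3.15 ± 0.449 CPM per kilobase), then Tnfsf10, Tnfrsf21, Tnfrsf11b and Tnfrsf19 between 1.98 and 1.41. All others averaged 0.543 or less. Neighbours in this order were separated in every WT library at 4 places: between Tnfrsf1a and Tnfrsf1b, between Tnfrsf1b and Tnfsf12, between Tnfrsf14 and Tnfrsf12a, and between Tnfrsf19 and Tnfrsf25. The other neighbours overlapped. The order of Tnfsf12, Tnfrsf14 and Tnfrsf12a depends on the length used. Tnfrsf12a has 1932 bases of annotated exon but a longest transcript of 984. These lengths are 1438 and 1173 for Tnfrsf14 and 1515 and 1435 for Tnfsf12. By the longest transcript the mean of Tnfrsf12a would stand above those of the other genes named here with it.

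**Figure D2:**
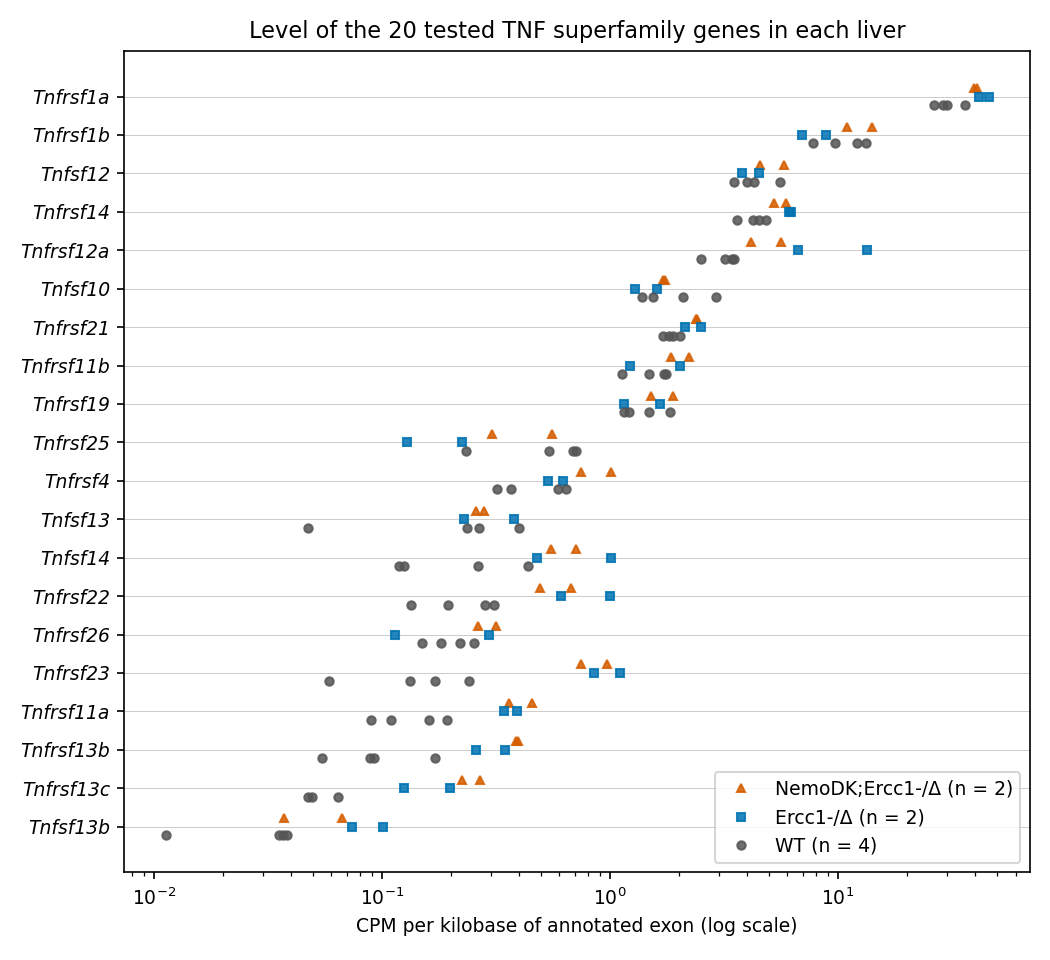
Level of each tested gene in each liver, in CPM per kilobase of annotated exon on a log axis, ordered by the mean in WT livers (30.4 for Tnfrsf1a at the top). Triangles are NemoDK;Ercc1-/Δ livers (n = 2), squares Ercc1-/Δ livers (n = 2) and circles WT livers (n = 4); the mutant points of Tnfrsf22, Tnfrsf23 and Tnfrsf11a lie to the right of the WT points.

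Tnfrsf23 and Tnfrsf22, genes of mouse decoy receptors for TRAIL, were higher in both mutant groups, and Tnfrsf23 had the largest fold change of the 7 genes called in Ercc1-/Δ livers. Tnfrsf23 and Tnfrsf22 encode small receptors without a death domain that bind the TRAIL ligand in the mouse. They lie with Tnfrsf26 in a cluster on the minus strand of chromosome 7 (GRCm38): Tnfrsf26 at chr7:143607659-143628722, Tnfrsf22 at chr7:143634806-143649661 and Tnfrsf23 at chr7:143665809-143685872, with gaps of 6083 and 16147 bases. Tnfrsf23 was 2.96 and 3.86 CPM in the NemoDK livers and 3.37 and 4.38 CPM in the Ercc1-/Δ livers, against 0.678, 0.957, 0.524 and 0.232 CPM in the WT livers. All 4 mutant livers were above all 4 WT livers. The log2 fold change was 2.53 ± 0.41 in NemoDK against WT (edgeR, adjusted p = 0.00542) and 2.72 ± 0.41 in Ercc1-/Δ against WT (adjusted p = 0.00331). The NemoDK call ended without NemoDK library 2 (2.32, adjusted p = 0.0544), and the Ercc1-/Δ call held without any 1 library. With age as a covariate the Ercc1-/Δ difference was of like size but not called (2.85 ± 1.02, adjusted p = 0.256).

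Tnfrsf22 was 2.07 and 2.84 CPM in the NemoDK livers and 4.22 and 2.58 CPM in the Ercc1-/Δ livers, against 0.823, 1.31, 0.568 and 1.20 CPM in the WT livers, again with no overlap of mutant and WT livers. It rose by 1.33 ± 0.37 in NemoDK against WT (edgeR, adjusted p = 0.0391) and by 1.80 ± 0.36 in Ercc1-/Δ against WT (adjusted p = 0.0103). The Ercc1-/Δ call ended without Ercc1-/Δ library 1 (log2 fold change 1.40). The age covariate left a far smaller difference that was not called (0.18 ± 0.69, adjusted p = 0.924). The NemoDK call ended without WT library 1 (1.25, 0.0842), WT library 3 (1.13, 0.0516), WT library 4 (1.45, 0.0566), NemoDK library 1 (1.54, 0.122) or NemoDK library 2 (1.08, 0.250; log2 fold change and adjusted p each). Reads may not be assigned to this pair with certainty: 27.4% of the 50-base windows of Tnfrsf22 transcripts also occur in Tnfrsf23, in Slc25a20 or in predicted gene models, and 18.0% of those of Tnfrsf23 occur in Tnfrsf22. The sum of both genes does not depend on how reads are split between them. Reads shared with other genes, left out or counted repeatedly can still affect it. The sum was 5.03 and 6.69 CPM in the NemoDK livers and 7.59 and 6.96 CPM in the Ercc1-/Δ livers, against 1.50, 2.27, 1.09 and 1.43 CPM in the WT livers. The third gene of the cluster, Tnfrsf26, was not called in either comparison. It was 1.02 and 0.847 CPM in the NemoDK livers, 0.367 and 0.950 CPM in the Ercc1-/Δ livers and 0.581, 0.705, 0.480 and 0.811 CPM in the WT livers. Both NemoDK livers were above all WT livers, and the Ercc1-/Δ livers overlapped both other groups. Its log2 fold change was 0.53 ± 0.42 in NemoDK against WT (edgeR, adjusted p = 0.416) and 0.035 ± 0.44 in Ercc1-/Δ against WT (adjusted p = 0.963). The 95% intervals were wide, at -0.43 to 1.50 and -0.96 to 1.03. Whether the 3 genes differ from each other in their change was not tested. Exons of Tnfrsf23 and Tnfrsf26 overlap E230032D23Rik on the other strand over 164 and 107 bases.

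Tnfrsf12a (chr17:23675445-23677468, minus strand) encodes Fn14, the receptor of TWEAK, known for its induction in injured and regenerating liver. Its level was 10.8 and 8.01 CPM in the NemoDK livers and 26.0 and 12.9 CPM in the Ercc1-/Δ livers, against 4.84, 6.60, 6.16 and 6.76 CPM in the WT livers. Every mutant liver was above every WT liver, and the oldest mouse, Ercc1-/Δ 1 at 15.1 weeks, had the highest level. Tnfrsf12a rose by 1.67 ± 0.27 in Ercc1-/Δ against WT (edgeR, adjusted p = 0.00420), a call that held without any 1 library and was 1.08 without Ercc1-/Δ library 1 (adjusted p = 0.0388). An age covariate brought the difference to 0.28 ± 0.49 (adjusted p = 0.819). In NemoDK against WT it was 0.63 ± 0.28 (adjusted p = 0.146), and it was called with library size alone (0.89, adjusted p = 0.0458). The gene of its ligand, Tnfsf12, was 6.87 and 8.81 CPM in the NemoDK livers, 5.75 and 6.79 CPM in the Ercc1-/Δ livers and 5.28, 8.46, 6.51 and 6.02 CPM in the WT livers. Both mutant groups overlapped the WT livers. Both NemoDK livers were above both Ercc1-/Δ livers, a difference that was not called (edgeR, adjusted p = 0.840). Log2 fold changes of Tnfsf12 were 0.25 ± 0.21 in NemoDK against WT (adjusted p = 0.440) and -0.065 ± 0.22 in Ercc1-/Δ against WT (adjusted p = 0.859). Exons of Tnfsf12 overlap the read-through gene Tnfsfm13 on the same strand, which shares 46.8% of the 50-base windows.

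Tnfrsf11a (chr1:105780718-105847981, plus strand) encodes RANK, the receptor of RANKL, found on macrophages and osteoclast precursors. It was 2.73 and 2.16 CPM in the NemoDK livers and 2.05 and 2.34 CPM in the Ercc1-/Δ livers, against 0.533, 1.16, 0.961 and 0.656 CPM in the WT livers, and the mutant livers did not overlap the WT livers. Tnfrsf11a rose by 1.57 ± 0.32 in NemoDK against WT (edgeR, adjusted p = 0.0134) and by 1.41 ± 0.33 in Ercc1-/Δ against WT (adjusted p = 0.0179). Leaving out a library of the mutant group ended each call: NemoDK library 1 (1.38, 0.132) or 2 (1.72, 0.0670), and Ercc1-/Δ library 1 (1.50, 0.0719) or 2 (1.31, 0.0889; log2 fold change and adjusted p each). The Ercc1-/Δ call also ended with age as a covariate (0.95 ± 0.80, adjusted p = 0.604). Markers of monocytes and recruited macrophages, all 10 detected, summed to 118 and 114 CPM in the NemoDK livers and 88.7 and 119 CPM in the Ercc1-/Δ livers, against 41.5 to 52.2 CPM in the WT livers. Of the 10, 8 were called higher in each comparison with WT. Among all tested genes 10.6% were called higher in NemoDK against WT and 11.3% in Ercc1-/Δ against WT. Spp1, in this list, is also a cholangiocyte marker. The 7 cholangiocyte markers summed to 78.1 and 75.6 CPM in the NemoDK livers and 50.1 and 62.8 CPM in the Ercc1-/Δ livers, against 31.4 to 34.7 CPM in the WT livers. The 10 Kupffer cell markers, all detected, summed to 729 and 780 CPM in the NemoDK livers and 487 and 770 CPM in the Ercc1-/Δ livers, against 307 to 648 CPM in the WT livers. Of these 10, 2 were called higher and 1 lower in NemoDK against WT, and 1 higher and 1 lower in Ercc1-/Δ against WT. Called lower among all tested genes were 7.40% and 9.50%, so these counts are near the shares of all genes and no result about the markers. The part of these cells in the change of Tnfrsf11a was not tested. RANKL itself, encoded by Tnfsf11, had 4 counts in all 8 libraries together. Tnfrsf11b, the gene of the soluble decoy osteoprotegerin, which binds RANKL and TRAIL, was 6.25 and 5.21 CPM in the NemoDK livers, 3.45 and 5.70 CPM in the Ercc1-/Δ livers and 4.84, 3.17, 4.19 and 4.98 CPM in the WT livers. The Ercc1-/Δ livers overlapped the WT livers and both NemoDK livers were above them, with log2 fold changes of 0.41 ± 0.26 in NemoDK against WT (adjusted p = 0.295) and 0.089 ± 0.26 in Ercc1-/Δ against WT (adjusted p = 0.837).

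**Figure D3:**
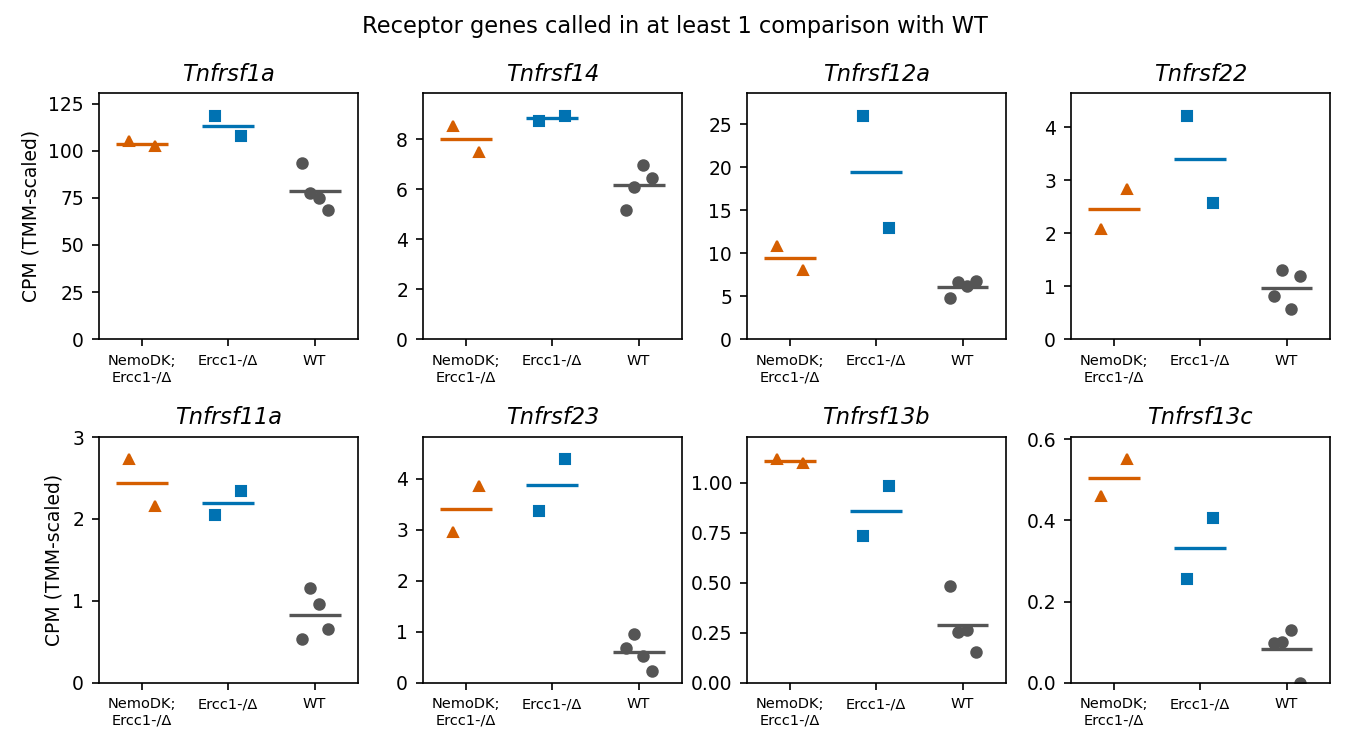
CPM of the 8 receptor genes called in at least 1 comparison with WT, in each liver (points) with the group mean (lines), for NemoDK;Ercc1-/Δ (n = 2), Ercc1-/Δ (n = 2) and WT (n = 4), from 0 on each vertical axis. The mutant points lie above all WT points in every panel, and Ercc1-/Δ library 1 is the highest point for Tnfrsf12a, Tnfrsf22 and Tnfrsf1a.

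B cells receive the survival factors BAFF and APRIL through 3 receptors. The gene of TACI was higher in both mutant groups and that of the BAFF receptor in NemoDK livers, while Tnfrsf17, the gene of BCMA, was too low to test, with 0 and 0 counts in the NemoDK livers, 1 and 3 in the Ercc1-/Δ livers and 0, 2, 0 and 0 in the WT livers. Tnfrsf13b (chr11:61126755-61149372, plus strand) encodes TACI. It was 1.12 and 1.10 CPM in the NemoDK livers and 0.733 and 0.984 CPM in the Ercc1-/Δ livers, against 0.484, 0.252, 0.262 and 0.154 CPM in the WT livers. Tnfrsf13c (chr15:82221743-82224369, minus strand) encodes the BAFF receptor and had 14 and 13 counts in the NemoDK livers and 7 and 12 in the Ercc1-/Δ livers, against 2, 2, 3 and 0 in the WT livers. For both genes all 4 mutant livers were above all WT livers. Tnfrsf13b rose by 1.95 ± 0.42 in NemoDK against WT (edgeR, adjusted p = 0.0165) and by 1.58 ± 0.43 in Ercc1-/Δ against WT (adjusted p = 0.0335). Tnfrsf13c rose by 2.59 ± 0.67 in NemoDK against WT (adjusted p = 0.0315), and its difference in Ercc1-/Δ against WT was 2.01 ± 0.71 (adjusted p = 0.0759, but called with library size alone, 2.26, adjusted p = 0.0411). Both genes passed the count filter only through mutant libraries.

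The 8 B-cell markers, none at 0 in any library, summed to 23.2 and 15.8 CPM in the NemoDK livers and 7.48 and 19.2 CPM in the Ercc1-/Δ livers, against 5.76, 8.11, 5.15 and 6.72 CPM in the WT livers. Called higher were 5 of 8 in NemoDK against WT, beside 10.6% of all tested genes, and 1 of 8 in Ercc1-/Δ against WT, beside 11.3%. The second count is near the share of all genes and is no result about the markers. The sums of 3 mutant livers were above all WT sums, and Ercc1-/Δ library 1 lay within the WT range. In that library Tnfrsf13b was above WT. All 8 markers had positive log2 fold changes in both comparisons with WT. The part of B cells in the changes of Tnfrsf13b and Tnfrsf13c was not tested. Calls of Tnfrsf13b and Tnfrsf13c in NemoDK against WT ended without NemoDK library 1 (1.93, 0.120 for Tnfrsf13b and 2.71, 0.155 for Tnfrsf13c, log2 fold change and adjusted p each) or NemoDK library 2 (1.95, 0.107 and 2.46, 0.185), and for Tnfrsf13c also without WT library 1 (2.69, 0.0572). The call of Tnfrsf13b in Ercc1-/Δ against WT held without WT library 1 and ended without any other library, with log2 fold changes of 1.35 to 1.77 and adjusted p-values of 0.0514 to 0.164. It also ended with only the 2 groups in the fit (1.58, adjusted p = 0.0664) or an age covariate (3.02, 0.225).

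**Figure D4:**
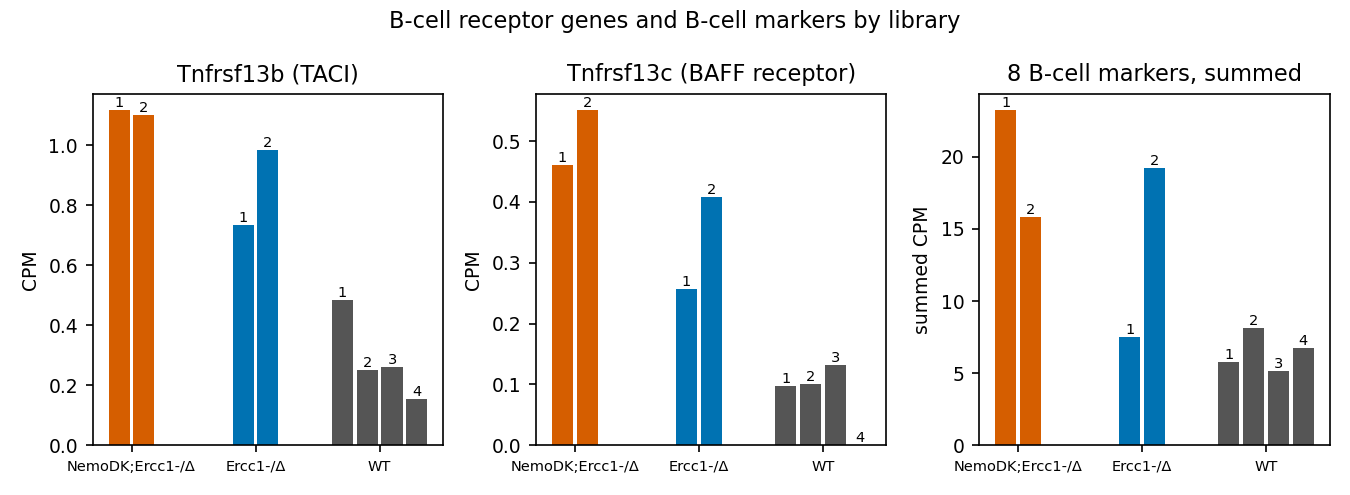
CPM of Tnfrsf13b and Tnfrsf13c and the summed CPM of 8 B-cell markers, 1 bar per liver with its library number, for NemoDK;Ercc1-/Δ, Ercc1-/Δ and WT. The marker sum of Ercc1-/Δ library 1 (7.48 CPM) lies within the WT sums (5.15 to 8.11 CPM), and both receptor bars of that library stand above the WT bars.

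The ligands of these receptors were scarce. Tnfsf13b, the gene of BAFF, ranged from 0.254 to 0.460 CPM in the NemoDK livers, from 0.509 to 0.696 CPM in the Ercc1-/Δ livers and from 0.0772 to 0.262 CPM in the WT livers. Its log2 fold change was 0.81 ± 0.55 in NemoDK against WT (adjusted p = 0.331) and 1.54 ± 0.51 in Ercc1-/Δ against WT (adjusted p = 0.0646, called with library size alone at 0.0291). Tnfsf13, the gene of APRIL, ranged from 0.424 to 0.460 CPM in the NemoDK livers, from 0.373 to 0.623 CPM in the Ercc1-/Δ livers and from 0.0772 to 0.655 CPM in the WT livers, all groups overlapping. Adjusted p-values for Tnfsf13 were 0.843 in NemoDK against WT and 0.700 in Ercc1-/Δ against WT. It shares 57.3% of its 50-base windows with Tnfsfm13 and overlaps Tnfsf13os on the other strand.

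Of the TNF receptors themselves, Tnfrsf1a was higher in Ercc1-/Δ livers by a small amount. Tnfrsf1a (chr6:125349362-125362484, plus strand) was 105 and 102 CPM in the NemoDK livers and 118 and 108 CPM in the Ercc1-/Δ livers, against 93.5, 77.7, 75.0 and 68.5 CPM in the WT livers, with no overlap. It rose by 0.52 ± 0.13 in Ercc1-/Δ against WT (edgeR, adjusted p = 0.0275), while the difference in NemoDK against WT was 0.40 ± 0.14 (adjusted p = 0.0739; upper-quartile factors, library size alone or leaving out WT library 1 made it a call, at 0.0396, 0.00694 and 0.0373). The Ercc1-/Δ call held without WT library 1 or 3. It ended without WT library 2 (0.52, 0.0514), WT library 4 (0.46, 0.0585), Ercc1-/Δ library 1 (0.45, 0.161), Ercc1-/Δ library 2 (0.59, 0.0703), NemoDK library 1 (0.52, 0.0569) or NemoDK library 2 (0.52, 0.0569; log2 fold change and adjusted p each), with only the 2 groups in the fit (0.52, 0.0535) and with an age covariate (0.71, 0.359). Tnfrsf1b, the TNFR2 gene, most used by immune cells, was 41.9 and 53.8 CPM in the NemoDK livers, 26.4 and 33.8 CPM in the Ercc1-/Δ livers and 46.2, 50.7, 29.7 and 37.1 CPM in the WT livers. Both mutant groups overlapped WT, at 0.23 ± 0.22 (adjusted p = 0.505) in NemoDK and -0.44 ± 0.22 (adjusted p = 0.198) in Ercc1-/Δ.

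Tnfrsf14 (chr4:154921933-154928563, minus strand) encodes HVEM, a receptor of the ligand LIGHT that also binds the inhibitory receptor BTLA. It was 8.51 and 7.50 CPM in the NemoDK livers and 8.72 and 8.93 CPM in the Ercc1-/Δ livers, against 5.18, 6.09, 6.94 and 6.45 CPM in the WT livers, and the mutant livers stood above all WT livers. Tnfrsf14 rose by 0.52 ± 0.16 in Ercc1-/Δ against WT (edgeR, adjusted p = 0.0493), close to the threshold, and its difference in NemoDK against WT was 0.38 ± 0.16 (adjusted p = 0.134, called with library size alone at 0.0249). The Ercc1-/Δ call held without WT library 3 and ended without any other library (log2 fold changes 0.46 to 0.54, adjusted p-values 0.0763 to 0.164). It also ended with no count filter (0.52, 0.0915), robust empirical Bayes (0.52, 0.0526), only the 2 groups in the fit (0.52, 0.0825) and age as a covariate (0.41, 0.656). Tnfsf14, which encodes LIGHT, ranged from 1.02 to 1.31 CPM in the NemoDK livers, from 0.883 to 1.87 CPM in the Ercc1-/Δ livers and from 0.218 to 0.806 CPM in the WT livers. All mutant livers were above all WT livers, but the test fell short: 1.44 ± 0.54 in NemoDK against WT (adjusted p = 0.100) and 1.68 ± 0.53 in Ercc1-/Δ against WT (adjusted p = 0.0561). With DESeq2 the Ercc1-/Δ difference was called (1.70, adjusted p = 0.0292), and so it was with limma-voom (0.0477), no count filter (0.0193), upper-quartile factors (0.0485), library size alone (0.0242) and without WT library 2 (0.0257). The NemoDK difference was called with library size alone (1.71, adjusted p = 0.0453) and without WT library 2 (1.91, adjusted p = 0.0416). The age covariate reversed the Ercc1-/Δ difference to -0.23 ± 1.17 (adjusted p = 0.943).

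Tnfsf10, the gene of TRAIL, which can kill cells through death receptors, was 9.17 and 9.02 CPM in the NemoDK livers, 8.47 and 6.79 CPM in the Ercc1-/Δ livers and 8.14, 15.4, 11.0 and 7.26 CPM in the WT livers. Here both mutant groups overlapped the WT livers. Both NemoDK livers were above both Ercc1-/Δ livers, a difference that was not called (edgeR, adjusted p = 0.916). The log2 fold change of Tnfsf10 was -0.20 ± 0.29 in NemoDK against WT (edgeR, adjusted p = 0.672) and 0.073 there under library size alone. In Ercc1-/Δ against WT it was -0.45 ± 0.29 (adjusted p = 0.299). So the ligand that Tnfrsf22 and Tnfrsf23 bind was not called in either comparison. Tnfrsf21 encodes DR6, a death-domain receptor, and was 9.76 and 9.91 CPM in the NemoDK livers and 8.72 and 10.3 CPM in the Ercc1-/Δ livers, against 7.75, 8.36, 7.03 and 7.45 CPM in the WT livers. All mutant livers were above all WT livers, with small differences of 0.36 ± 0.14 in NemoDK against WT (adjusted p = 0.105) and 0.31 ± 0.14 in Ercc1-/Δ against WT (adjusted p = 0.144), both called with library size alone (0.0115 and 0.0146). Tnfrsf19, which encodes TROY, was 7.20 and 8.98 CPM in the NemoDK livers, 5.46 and 7.81 CPM in the Ercc1-/Δ livers and 5.72, 5.44, 8.65 and 6.99 CPM in the WT livers. Its groups overlapped, with adjusted p-values of 0.463 in NemoDK against WT and 0.973 in Ercc1-/Δ against WT.

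Receptors of T cells were near the lower limit of the test. Tnfrsf25, the gene of DR3, the receptor of TL1A, was 0.690 and 1.27 CPM in the NemoDK livers, 0.293 and 0.509 CPM in the Ercc1-/Δ livers and 0.533, 1.56, 1.62 and 1.24 CPM in the WT livers. Its Ercc1-/Δ livers were both below all WT livers, at -1.61 ± 0.54 (edgeR, adjusted p = 0.0673). How many of all tested genes separate in this way was not counted. Tnfrsf25 was called in Ercc1-/Δ against WT with DESeq2 (0.0316), no count filter (0.0337) or without WT library 1 (0.0272). In NemoDK against WT the difference was -0.35 ± 0.49 (adjusted p = 0.659). Tnfrsf4, which encodes the costimulatory receptor OX40, ranged from 1.02 to 1.38 CPM in the NemoDK livers, from 0.733 to 0.849 CPM in the Ercc1-/Δ livers and from 0.437 to 0.872 CPM in the WT livers. Its difference was 0.87 ± 0.37 in NemoDK against WT (adjusted p = 0.134) and 0.27 ± 0.38 in Ercc1-/Δ against WT (adjusted p = 0.653). The 11 markers of T and NK cells summed to 14.0 and 13.5 CPM in the NemoDK livers and 7.26 and 11.6 CPM in the Ercc1-/Δ livers, against 6.79 to 9.25 CPM in the WT livers, and their part in these values was not tested.

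The other 10 genes had too few counts to test. Tnfrsf18, the gene of GITR, had 46 counts over the 8 libraries, Tnfrsf9 (4-1BB) 26, Tnfsf8 (CD30 ligand) 18, Tnfsf15 (TL1A) 18 and Tnfsf9 (4-1BB ligand) 17. Tnfrsf17 (BCMA) and Tnfsf18 (GITR ligand) had 6 counts each, Tnfsf11 had 4, Tnfrsf8 (CD30) 3 and Tnfsf4 (OX40 ligand) 2. Several of them are genes of activated T cells and antigen-presenting cells. Tnfrsf9 had 1 and 10 counts in the NemoDK livers, 5 and 6 in the Ercc1-/Δ livers and 0, 2, 0 and 2 in the WT livers, so 1 NemoDK liver held most of the counts of its group. Tnfrsf8, Tnfsf4 and Tnfsf18 had 0 counts in all 4 WT livers, which allows a level of up to 0.0336 CPM over the group (3 counts, counting error only). At this depth their presence in WT liver was not detectable. Exons of Tnfrsf18 and Tnfsf9 overlap a predicted gene on the other strand.

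Between the mutant groups no gene of the family was called, and none of all 15598 tested genes (0%) was with edgeR, while DESeq2 called 69 over all genes. At an unadjusted p under 0.05 there were 2 of the 20 (10%), Tnfrsf12a and Tnfrsf1b, beside 6.81% of all tested genes. That count is near the share of all genes and is no result about the family. DESeq2 and limma-voom also called 0 of the 20. Of the 20, 7 were higher and 4 lower in both NemoDK livers than in both Ercc1-/Δ livers, and 9 overlapped. With 2 livers a group such a separation arises easily by chance. How many of all tested genes separate between groups was not counted in any comparison, so separation is no result about these genes. Tnfrsf12a was lower in both NemoDK livers than in both Ercc1-/Δ livers, at -1.04 ± 0.32 (95% interval -1.77 to -0.32, edgeR, adjusted p = 0.648). With age as a covariate this difference was 0.21 ± 0.46 (adjusted p = 0.955), and without Ercc1-/Δ library 1 it was -0.46. Tnfrsf1b was higher in both NemoDK livers than in both Ercc1-/Δ livers, at 0.67 ± 0.26 (95% interval 0.085 to 1.25, adjusted p = 0.694). For Tnfrsf23 and Tnfrsf22 the intervals were wide: -1.20 to 0.82 around -0.19 ± 0.44 for Tnfrsf23 and -1.40 to 0.46 around -0.47 ± 0.41 for Tnfrsf22. For Tnfrsf11a the interval was -0.67 to 0.98, for Tnfrsf13b -0.66 to 1.40 and for Tnfrsf13c -0.90 to 2.08. Tnfrsf1a (-0.48 to 0.24), Tnfrsf14 (-0.56 to 0.28) and Tnfrsf21 (-0.32 to 0.42) had the narrowest intervals of the 20. Differences up to these bounds cannot be told from 0 with 2 mice a group, and the mice also differ in age.

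**Figure D5:**
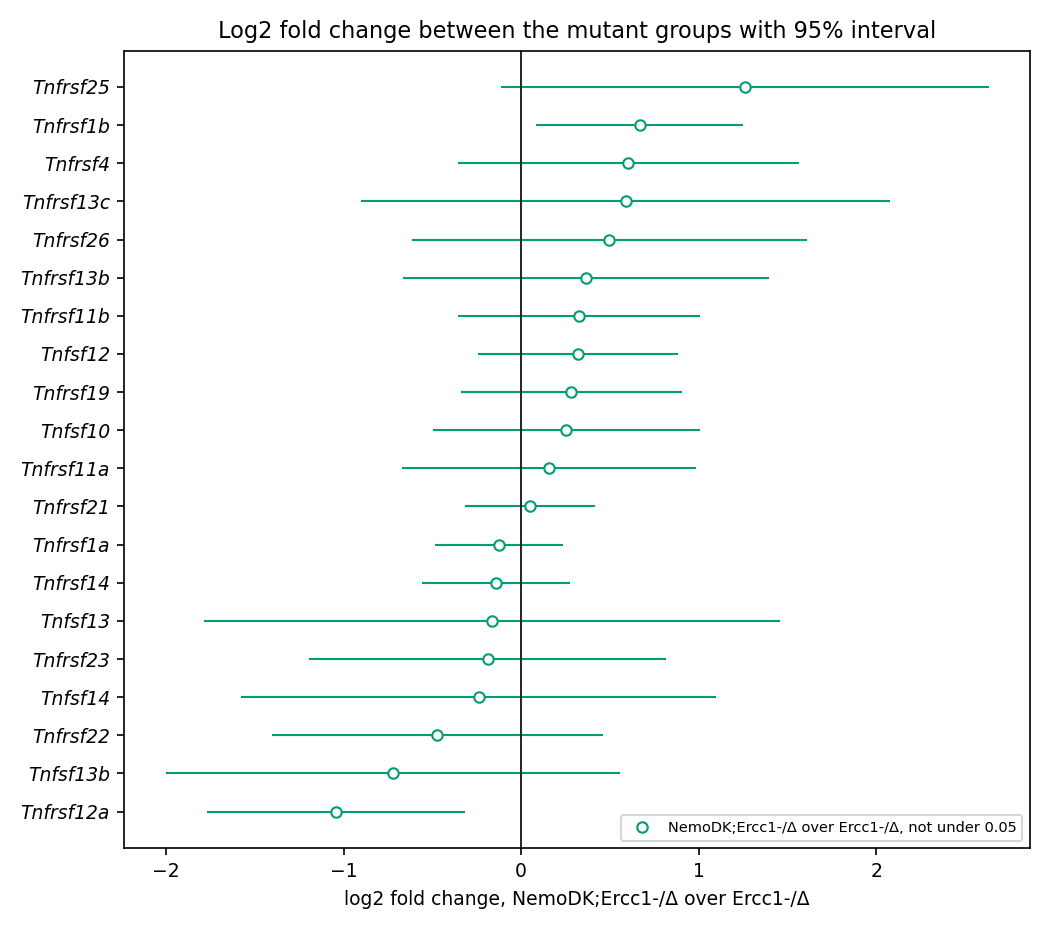
Log2 fold change of the 20 tested genes in NemoDK;Ercc1-/Δ over Ercc1-/Δ livers (horizontal axis, n = 2 each), with 95% intervals as lines. All points are open because none was called. The intervals are not adjusted for the number of genes. Those of Tnfrsf12a (-1.77 to -0.32) and Tnfrsf1b (0.085 to 1.25) do not include 0, but the edgeR adjusted p-values are 0.648 and 0.694.

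Of 15 family genes with other symbols 10 were tested. The receptor genes Eda2r, Cd40 and Relt were higher in both comparisons with WT, the ligand gene Ltb was higher in NemoDK against WT, and 0 were lower, beside 10.6% higher among all tested genes in NemoDK against WT and 11.3% in Ercc1-/Δ against WT. The receptor genes Fas, Ltbr, Ngfr and Cd27 were not called in either comparison (adjusted p-values 0.247 to 0.982 in NemoDK against WT and 0.248 to 0.920 in Ercc1-/Δ against WT). The median log2 fold change of the 10 was 0.86 in NemoDK against WT and 0.59 in Ercc1-/Δ against WT, but Cd40, Relt and Tnf passed the count filter only through mutant libraries, so it is no measure of the list. Eda2r, which encodes XEDAR, a receptor of the ectodysplasin isoform A2, was 10.3 and 9.24 CPM in the NemoDK livers and 4.87 and 8.25 CPM in the Ercc1-/Δ livers, against 0.678, 0.101, 0.131 and 0.733 CPM in the WT livers. It rose by 4.52 ± 0.52 in NemoDK against WT (edgeR, adjusted p = 0.00136) and by 3.95 ± 0.53 in Ercc1-/Δ against WT (adjusted p = 0.00211), more than any gene with a Tnfrsf symbol tested here. Cd40, the receptor through which T cells activate B cells and macrophages, was 1.41 and 1.53 CPM in the NemoDK livers and 1.21 and 1.43 CPM in the Ercc1-/Δ livers, against 0.339, 0.201, 0.0873 and 0.270 CPM in the WT livers, and rose by 2.68 ± 0.41 in NemoDK against WT (adjusted p = 0.00423). The mutant livers lay above the WT livers for both genes, and these calls held without any 1 library. Relt, a receptor gene of lymphoid tissue, rose by 1.56 ± 0.34 in NemoDK against WT (adjusted p = 0.0172, but 0.0531 without NemoDK library 1 and 0.194 without NemoDK library 2) and by 1.38 ± 0.34 in Ercc1-/Δ against WT (adjusted p = 0.0243, but 0.0543 without WT library 4, 0.102 without Ercc1-/Δ library 1 and 0.0946 without Ercc1-/Δ library 2). Ltb, the gene of lymphotoxin beta, rose by 0.89 ± 0.26 in NemoDK against WT (adjusted p = 0.0464), but this call ended without any 1 of the 8 libraries (adjusted p-values 0.0560 to 0.350). Tnf itself was 0.657 and 0.297 CPM in the NemoDK livers, 0.660 and 0.441 CPM in the Ercc1-/Δ livers and 0.0969, 0.252, 0.437 and 0.154 CPM in the WT livers, and Cd70 had 0 counts in every library.

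Of 31 signalling genes downstream of these receptors, all tested, 5 were higher and 2 lower in NemoDK against WT (median log2 fold change -0.015), and 5 were higher and 4 lower in Ercc1-/Δ against WT (median -0.046). That is 22.6% and 29.0% of the list, near the 18.0% and 20.8% called among all tested genes, so the counts are no result about the list. Mlkl, the executor of necroptosis, was 17.2 and 18.3 CPM in the NemoDK livers and 27.4 and 15.3 CPM in the Ercc1-/Δ livers, against 5.91, 5.74, 3.89 and 5.37 CPM in the WT livers. It rose by 1.77 ± 0.24 in NemoDK against WT (edgeR, adjusted p = 0.00252) and by 2.03 ± 0.24 in Ercc1-/Δ against WT (adjusted p = 0.00124), and both calls held without any 1 library. Tnip1, a partner of the deubiquitinase A20, rose by 0.64 ± 0.17 in NemoDK against WT (adjusted p = 0.0348, but 0.253 without NemoDK library 1 and 0.120 without NemoDK library 2) and by 0.98 ± 0.17 in Ercc1-/Δ against WT (adjusted p = 0.00588). Tnfaip3, the A20 gene itself, a brake on NF-κB, rose by 1.06 ± 0.20 in Ercc1-/Δ against WT (adjusted p = 0.00798, but 0.0693 without Ercc1-/Δ library 1). Cflar, which encodes the caspase-8 inhibitor c-FLIP, fell to 69.1 and 72.9 CPM in the NemoDK livers and 71.0 and 66.1 CPM in the Ercc1-/Δ livers, against 93.6, 109, 103 and 117 CPM in the WT livers. Its log2 fold change was -0.57 ± 0.12 in NemoDK against WT (adjusted p = 0.0144) and -0.62 ± 0.12 in Ercc1-/Δ against WT (adjusted p = 0.00897). The NemoDK call of Cflar ended without NemoDK library 1 (0.148) or 2 (0.107) and the Ercc1-/Δ call without Ercc1-/Δ library 1 (0.0508) or 2 (0.0615), and with library size alone both ended (0.108 and 0.0656). Traf1, a TRAF adaptor, rose by 1.85 ± 0.49 in NemoDK against WT (adjusted p = 0.0336); the call ended without WT library 1 (0.0591), WT library 4 (0.0669), NemoDK library 1 (0.210) or NemoDK library 2 (0.132). The remaining calls were Map3k14 and Tab1 (higher) and Birc3 (lower) in NemoDK against WT, and Traf3 and Tab1 (higher) and Birc3, Nfkbia and Map3k5 (lower) in Ercc1-/Δ against WT. Each of them ended when at least 1 of the 8 libraries was left out. With age as a covariate, 0 of the 12 calls in Ercc1-/Δ against WT among these genes and those with other symbols held. Between NemoDK and Ercc1-/Δ livers 0 of these genes were called with edgeR. At an unadjusted p under 0.05 there were 4 of the 31 signalling genes and 1 of the 10 with other symbols, beside 6.81% of all tested genes. The counts are too small to be a result about the lists. The 1 with another symbol was Eda, the gene of ectodysplasin and so of the ligand of Eda2r. It was 2.86 and 3.09 CPM in the NemoDK livers and 1.21 and 0.950 CPM in the Ercc1-/Δ livers, beside 1.89, 1.71, 1.62 and 2.08 CPM in the WT livers. Both NemoDK livers were above both Ercc1-/Δ livers, by 1.46 ± 0.28 (edgeR, adjusted p = 0.539), and DESeq2 called it (1.45, adjusted p = 0.0293).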

How the data were processed

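The authors deposited raw counts per gene for 8 libraries; the submitters' processing notes name FastQC, HISAT2 2.1.0, featureCounts and the GRCm38 (mm10) genome. The strand setting, annotation release and handling of reads with several alignments are not given in the sources used here. Counting error sets the precision of low genes. From these counts, edgeR's filterByExpr kept genes with a count of 10 (0.404 CPM) in at least 2 libraries, library sizes were scaled by TMM, and all 8 libraries entered 1 quasi-likelihood fit with a mean for each genotype (5 residual and 3.67 prior degrees of freedom, biological coefficient of variation 0.227). Benjamini-Hochberg adjustment ran over 15598 genes, with a threshold of 0.05. The script was tested on simulated counts. A standard error is the size of the log2 fold change over the root of its F value. Coordinates and exon lengths come from GENCODE vM21 on GRCm38, and promoters from RefSeq. Software was R 4.3.3, edgeR 4.0.16, limma 3.58.1, DESeq2 1.42.0, Python 3.11.15 and matplotlib 3.10.9.

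The genes and lists were chosen with earlier results of these data known. Every gene of the rule is named; those called, or with a mean of at least 1 CPM, have their value in every library, and from each other list up to 4 genes a comparison with the smallest adjusted p are given, apart from Tnf, Cd70, Eda, Fas, Ltbr, Ngfr and Cd27, chosen after their values were seen. The alternatives covered the scaling (RLE, upper quartile, library size alone), the count filter, DESeq2, limma-voom, robust empirical Bayes, 2-group fits, age as a covariate and each library left out in turn. Where this leaves 1 library in a group, that library is assumed to vary like the others.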

Additional observations from a re-analysis of the deposited data

Results flagged for a closer look

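Tnfsf13b, the gene of BAFF, was 0.242, 0.252, 0.262 and 0.0772 CPM in WT libraries 1 to 4, so that 1 WT liver lay far below the other 3, which were close together. Chance flags about 1 in 20 groups of 4, and 20 genes were looked at. That library held 2 counts of the gene.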

How the results depend on the processing

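No paired analysis was possible because the labels give every library its own number. The number of family genes called kept within 1.5 times of the reported one with RLE and upper-quartile factors, no filter or 1 CPM, DESeq2, limma-voom and robust empirical Bayes in all 3 comparisons. It was 10 in NemoDK against WT and 11 in Ercc1-/Δ against WT with library size alone, and in Ercc1-/Δ against WT 4 with only the 2 groups fitted and 0 with age as a covariate. With 1 library left out it was 0 to 6 in NemoDK against WT and 2 to 7 in Ercc1-/Δ against WT. Over all genes the number called was 537 to 3016 in NemoDK against WT and 1157 to 3408 in Ercc1-/Δ against WT with 1 library left out, and 41 in Ercc1-/Δ against WT with age as a covariate. Between the mutant groups it was 69 with DESeq2, 65 with no filter, 1 with only the 2 groups fitted and 0 to 2 with 1 library left out. The other TNF pathway genes called numbered 7 in NemoDK against WT with only the 2 groups fitted or with age as a covariate, 3 to 10 there with 1 library left out, 0 in Ercc1-/Δ against WT with age, 4 to 14 there with 1 library left out, and 1 between the mutant groups with DESeq2.

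Log2 fold changes that changed sign, all of genes not called in that comparison, were as follows. With age as a covariate they were, in NemoDK against Ercc1-/Δ, -0.57 for Tnfrsf11b, 0.21 for Tnfrsf12a, -0.87 for Tnfrsf13b, -0.65 for Tnfrsf13c, -0.31 for Tnfrsf19, 1.01 for Tnfrsf22, 0.71 for Tnfsf13 and 1.52 for Tnfsf14, and in Ercc1-/Δ against WT 0.66 for Tnfrsf19, -0.59 for Tnfsf13 and -0.23 for Tnfsf14. Under other scalings or tools they were, in Ercc1-/Δ against WT, 0.062 (upper quartile) and 0.25 (library size) for Tnfrsf19, 0.012 and 0.20 for Tnfsf12 and -0.090 for Tnfrsf26 (limma-voom), and in NemoDK against WT 0.073 for Tnfsf10 (library size). With 1 library left out, the ranges that crossed 0 were, in NemoDK against Ercc1-/Δ, -0.025 to 0.31 for Tnfrsf11a, -0.066 to 0.17 for Tnfrsf21, -0.39 to 0.011 for Tnfrsf23, -0.024 to 1.34 for Tnfrsf26, -0.49 to 0.24 for Tnfsf13 and -0.68 to 0.39 for Tnfsf14. In NemoDK against WT they were -0.84 to 0.036 for Tnfrsf25, -0.34 to 0.048 for Tnfsf10 and -0.15 to 0.58 for Tnfsf13. In Ercc1-/Δ against WT they were -0.32 to 0.40 for Tnfrsf11b, -0.30 to 0.22 for Tnfrsf19, -0.81 to 0.55 for Tnfrsf26, -0.19 to 0.078 for Tnfsf12 and -0.029 to 0.75 for Tnfsf13. The cause of these changes was not tested. Few counts limit the low genes, and 2 mice a group limit every comparison.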
